A study of Mus musculus with 32 samples.

Results

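Genes of the proteasome, the protease complex that degrades ubiquitin-tagged proteins, were measured in polyadenylated RNA of the sciatic nerve of 32 mice aged 6 months. Members were the genes whose symbol starts with Psma, Psmb, Psmc, Psmd, Psme, Psmf or Psmg. Of 54 such symbols, 4 pseudogene symbols holding -ps and 2 genes with a mean below 1 CPM (a gene's counts relative to the scaled library total) were dropped, which left 48 of the 45706 genes in the table. Those below the limit were Psma8, the alpha subunit of the testis form, at group means of 0.299 to 0.528 CPM, and Psmb11, the beta subunit of the thymus form. All 48 members passed the low-count filter and stood among the 15403 genes tested.

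The mice were of 4 genotypes: C3-PMP22 (n = 8, 4 labelled female), C3-PMP22 Sipa1l2-/- (n = 8, 5 female), Sipa1l2-/- (n = 9, 4 female) and WT (n = 7, 4 female). The C3-PMP22 transgene brings in human PMP22, whose product is a peripheral myelin protein, and mice with it model CMT1A, a demyelinating form of Charcot-Marie-Tooth disease. Sipa1l2 encodes a GTPase-activating protein for Rap GTPases, and the series asks whether it modifies that disease. Each library is labelled as a separate sample of 1 genotype, and the allele behind Sipa1l2-/- is not described in the labels.

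The 20S core of the proteasome is a barrel of alpha and beta rings, and 3 of its beta subunits, encoded by Psmb5, Psmb6 and Psmb7, cleave peptide bonds. The 19S cap, with a ring of ATPases and a set of non-ATPase subunits, recognises ubiquitin chains, unfolds the substrate and opens the core. In cells of the immune system and after interferon, Psmb8, Psmb9 and Psmb10 replace the standard catalytic subunits and give the immunoproteasome, which favours peptides for presentation on MHC class I. In Schwann cells, which make myelin, the proteasome degrades misfolded PMP22.

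By role, the members were 7 alpha and 7 beta subunits of the core, 3 immunoproteasome subunits, 6 ATPases and 11 other subunits of the 19S cap, and 5 genes of the alternative caps. They also held 4 assembly chaperones of the core, 3 assembly chaperones of the 19S cap, and Psmf1, which encodes the proteasome regulator PI31. The last was Psmc3ip, which shares the prefix but encodes a recombination factor and no subunit. The 31 members that are standard subunits of the core or the 19S cap are called constitutive subunits here. Cap subunits with other symbols, such as Adrm1, fall outside the rule.

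Total counts were 11030976 to 16990990 per library. Sipa1l2 averaged 85.9 ± 40.7 CPM in C3-PMP22 Sipa1l2-/- nerves and 88.8 ± 28.5 CPM in Sipa1l2-/- nerves, against 90.01 ± 25.3 CPM in C3-PMP22 nerves and 82.8 ± 20.3 CPM in WT nerves (SD), so the gene-level count did not separate the Sipa1l2 genotypes. In 30 of 32 libraries Xist and Y-linked genes fitted the sex given. C3-PMP22 7 and C3-PMP22 8, both labelled female, had Xist at 0.109 and 0.365 CPM, and Ddx3y, a Y-linked gene, at 146.5 and 146.1 CPM. The column headers identify animals by plain numbers (19 libraries) or numbers starting with G (13 libraries). In C3-PMP22 Sipa1l2-/- the 5 females have plain numbers and the 3 males G numbers, so sex and number series cannot be told apart there.

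Skeletal muscle transcripts varied widely between the nerves. The summed level of 16 muscle markers was 51.5, 39153 and 171299 CPM (lowest, median and highest) in C3-PMP22 and 37.0, 34257 and 51214 CPM in C3-PMP22 Sipa1l2-/-. It was 33.3, 2940 and 92882 CPM in Sipa1l2-/-, against 139, 3739 and 66293 CPM in WT. Myh7, the slow myosin heavy chain, was at 0 in libraries of all 4 genotypes, and the fast troponin gene Tnnc2 in Sipa1l2-/-. The highest sums belonged to C3-PMP22 7 and C3-PMP22 8. A muscle score, the mean centred log2 CPM over the markers, is therefore given beside the results below. All 10 Schwann cell markers were detected, at a median sum of 16552 CPM in C3-PMP22, 9828 CPM in C3-PMP22 Sipa1l2-/- and 18120 CPM in Sipa1l2-/-, against 16352 CPM in WT. The median sum of 8 adipocyte markers was 4639 CPM in C3-PMP22, 5626 CPM in C3-PMP22 Sipa1l2-/- and 5895 CPM in Sipa1l2-/-, against 8958 CPM in WT.

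All 31 constitutive subunits were detected, at levels from 23.8 to 91.0 CPM per kb of transcript. Across the 32 libraries, the highest member of the alpha ring was Psma7 at 82.8 ± 11.4 CPM per kb of transcript (SD), and the lowest was Psma2 at 25.7 ± 2.9. In the beta ring the range ran from Psmb6 at 80.5 ± 13.3 CPM per kb to Psmb1 at 42.5 ± 4.7. Among the 19S ATPases, Psmc3 was highest at 91.0 ± 16.0 CPM per kb and Psmc6 lowest at 36.1 ± 8.4. Among the non-ATPase cap subunits, Psmd2, a scaffold subunit that binds ubiquitin-like domains, had 64.3 ± 14.9 CPM per kb, and Psmd11, a lid subunit, had 23.8 ± 6.1. Assembly chaperones lay lower on this scale. Psmg2 had 12.3 ± 2.7 CPM per kb and Psmg3 6.66 ± 0.90 among the core chaperones, and Psmd10 had 9.96 ± 0.75 and Psmd5 7.72 ± 0.62 among the 19S chaperones. Psmf1 stood at 10.2 ± 1.8 CPM per kb and Psmc3ip at 1.91 ± 0.45. The annotated transcript sets these lengths, and the order within a class depends on it. Per kb of all annotated exons, Psma7 had 24.6 CPM, against 69.8 for Psma6, and Psmb6 had 34.3, against 45.2 for Psmb5. Psmc3 had 57.1, against 68.1 for Psmc5, and Psmc6 had 23.1, against 15.4 for Psmc2. Of the core and cap subunits named, Psma2, Psmb1, Psmd2 and Psmd11 kept their places.

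The members also differed in how far they varied between nerves. The 19S chaperones were the steadiest: Psmd10, which encodes gankyrin, had an SD of 0.11 log2 CPM over all 32 libraries, with a highest value 1.34 times the lowest. Psme4 varied most, with an SD of 0.70 log2 CPM and a highest value 8.24 times the lowest. Next came Psmb9 at 0.52, Psmd8 and Psmd6 at 0.48 each, and Psmb7 at 0.45.

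**Figure D1:**
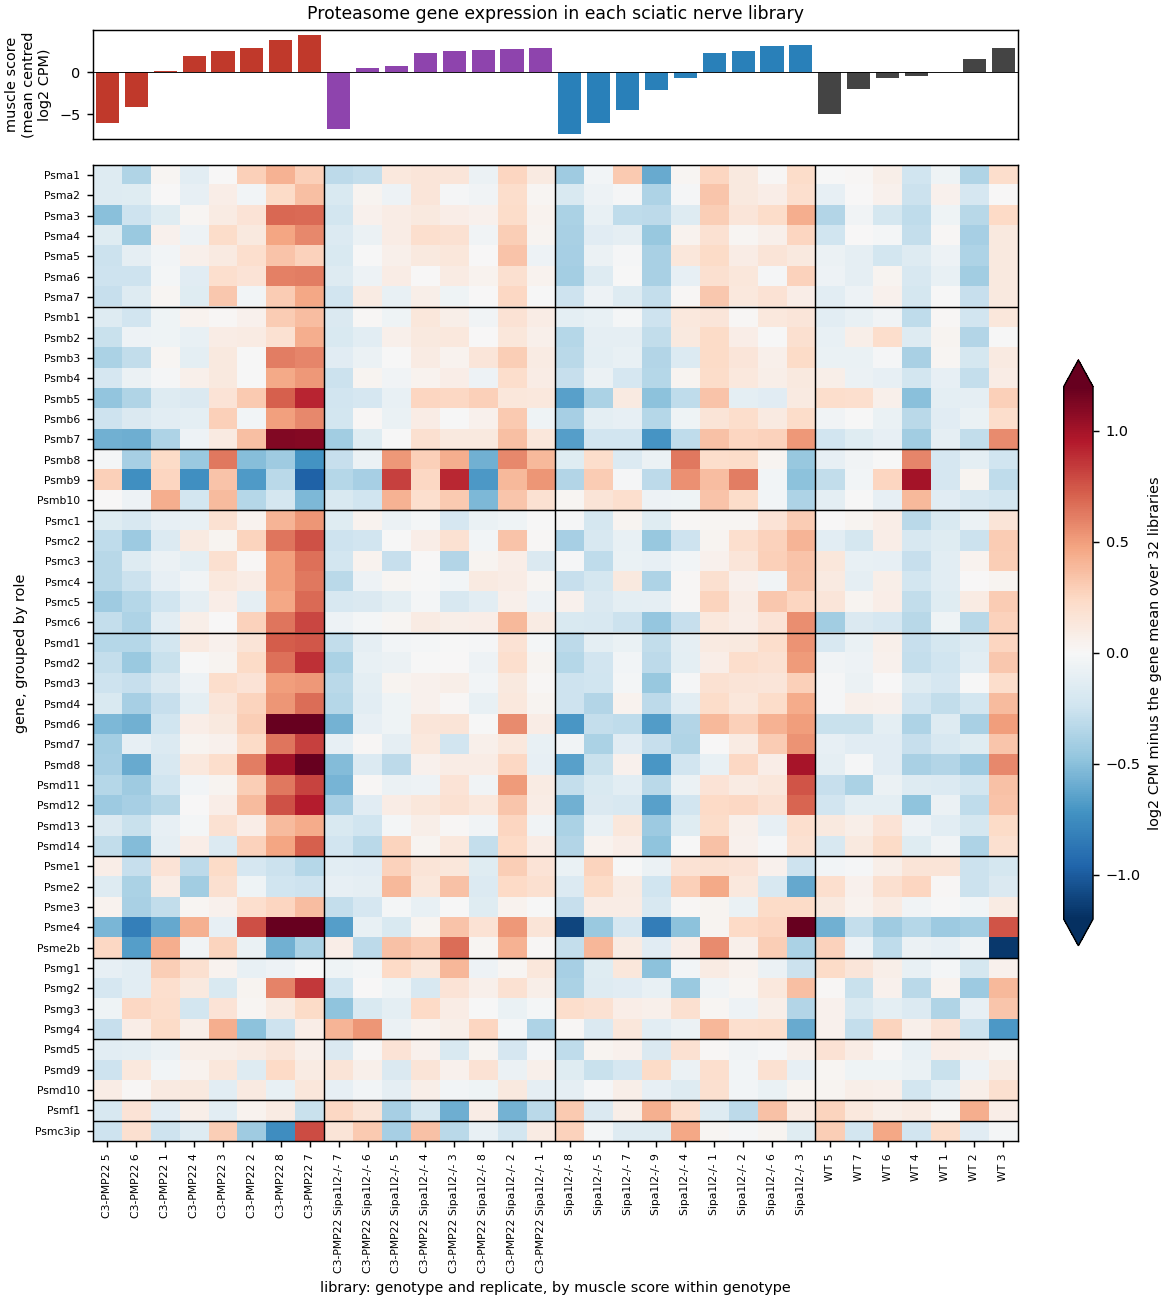
Heat map of log2 CPM minus each gene's mean over 32 libraries for the 48 members (rows, grouped by role), with libraries in columns by genotype and, within it, by muscle score, which the bars above show. In the mutant genotypes, most rows of constitutive subunits darken to red towards the right, where the muscle score is higher, and C3-PMP22 7 and 8 are the reddest columns. WT nerves do not follow this order: the median over all members is 0.17 in WT 3, with the highest WT score, but -0.21 in WT 2, which comes next. The 3 immunoproteasome rows do not follow the score either.

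Promoter sequence shows what some of these genes carry upstream. NFE2L1 and NFE2L2, transcription factors that raise proteasome genes in response to proteasome inhibition or oxidative stress, bind antioxidant response elements with the core TGACNNNGC. The RefSeq promoters (GRCm38.p6) were available for 41 of the 48 members, and both strands of the 250 bases before the start site were searched. The core was found in 5 of 41 members (12.2%), against 11.5% of the 27025 genes in that table. It stood in 4 of 25 constitutive subunits (16.0%) and in the 19S chaperone gene Psmd9, and in 0 of 3 immunoproteasome genes. Windows of 100 bases around it are printed for the 4 constitutive subunits, 5′ to 3′ on the gene's strand, with the core in capitals.
Psmb5, chr14:54618023-54618122, minus strand: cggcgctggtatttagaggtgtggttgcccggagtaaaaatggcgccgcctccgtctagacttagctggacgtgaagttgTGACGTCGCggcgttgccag
Psmb6, chr11:70525257-70525356, plus strand: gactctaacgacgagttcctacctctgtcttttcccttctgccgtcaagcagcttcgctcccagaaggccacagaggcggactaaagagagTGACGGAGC
Psmc6, chr14:45329574-45329673, plus strand: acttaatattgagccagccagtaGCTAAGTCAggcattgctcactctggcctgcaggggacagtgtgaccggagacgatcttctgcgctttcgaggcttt
Psmd12, chr11:107479278-107479377, plus strand: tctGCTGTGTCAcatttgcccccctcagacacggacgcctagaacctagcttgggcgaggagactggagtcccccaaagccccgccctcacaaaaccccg
The core reads forward in Psmb5 and Psmb6, at -47 to -39 and at -9 to -1 from the start site, and in reverse in Psmc6 and Psmd12, at -227 to -219 and at -247 to -239. The CCAAT box (CCAAT) was found in 14 of 41 members (34.1%), against 37.5% of all genes. The core of the interferon-stimulated response element was found in 3 of 41 members (7.32%), against 3.46% of all genes, and in 0 of the 3 immunoproteasome genes. The E-box CAGCTG of myogenic factors was found in 2 of 41 members (4.88%), against 14.7% of all genes. Matches of different motifs may share bases, and a match describes only the window.

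The first question of the design is what each genotype does against WT. By edgeR's quasi-likelihood test (p adjusted by Benjamini-Hochberg over all tested genes), 0 of 48 members passed an adjusted p of 0.05 in C3-PMP22 against WT, where 0.688% of all tested genes did. Unadjusted p was below 0.05 for 5 members, against 18.1% of all genes. Of the 48 log2 fold changes, 39 were above 0, with a median of 0.14, against 57.3% of all genes above 0 and a median of 0.04. Among the 31 constitutive subunits 30 were above 0, with a median of 0.19.

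The counts above and below 0 depended on 2 libraries and on the scaling. Without C3-PMP22 7 and 8, the libraries with the highest muscle scores, 13 of 31 constitutive subunits were above 0 and 18 below, with a median of -0.01. With counts scaled by library totals alone, 14 were above 0 and 17 below, with a median of -0.01, while the median of all genes moved to -0.12. The constitutive subunits thus kept a higher median than all genes in that fit. With the muscle score in the model the count was 29 above and 2 below, with a median of 0.10. The part of the muscle transcripts in the first count was not tested further.

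Of the members with the smallest p in C3-PMP22, Psmc6, an ATPase of the 19S ring, had 60.9, 81.1 and 138.0 CPM (lowest, median and highest) in C3-PMP22 nerves, against 59.2, 68.7 and 95.6 CPM in WT nerves. The log2 fold change was 0.34 ± 0.15 (SE; 95% interval 0.03 to 0.66; edgeR adjusted p = 0.246), and the groups overlapped over most of their range. Psmb4, a non-catalytic beta subunit, had 72.6, 85.4 and 120.2 CPM in C3-PMP22, against 68.8, 78.4 and 89.1 CPM in WT (log2 fold change 0.21 ± 0.10, edgeR adjusted p = 0.255). Psme4 was the third and is described with the alternative caps.

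In C3-PMP22 Sipa1l2-/- against WT, 0 of 48 members passed the test, where 1.38% of all genes did, and 1 member had an unadjusted p below 0.05, against 14.7% of all genes. The median log2 fold change was 0.07, with 36 members above 0, against a median of 0.01 and 51.2% above 0 over all genes. Of the 31 constitutive subunits 24 were above 0. With the muscle score in the model this count was 16 above and 15 below. After Psmf1, described below, the smallest p belonged to Psme2b (log2 fold change 0.38 ± 0.20, edgeR adjusted p = 0.371) and to Psma5, an alpha subunit. Psma5 had 46.5, 54.0 and 67.0 CPM in the double mutant, against 40.9, 49.0 and 57.3 CPM in WT (0.17 ± 0.10, adjusted p = 0.449).

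In Sipa1l2-/- against WT, 0 of 48 members passed edgeR's test, 0.0% of all genes did, and 0 members had an unadjusted p below 0.05, against 5.21% of all genes. The DESeq2 Wald test also called 0 members and 0.0% of all genes. The median log2 fold change over the members was 0.07, with 38 above 0, against a median of 0.02 and 54.8% above 0 over all genes. Within the plain-number series 29 of 31 constitutive subunits were above 0, with a median of 0.10, and within the G series 2 of 31 were, with a median of -0.26. The G series holds only 1 male and 1 female Sipa1l2-/- nerve, libraries 8 and 9, with muscle scores of -7.31 and -2.06. The smallest p belonged to Psmg1, a core assembly chaperone, with 6.8, 9.1 and 10.6 CPM in Sipa1l2-/- nerves, against 8.3, 9.99 and 11.3 CPM in WT nerves (log2 fold change -0.15 ± 0.10, edgeR adjusted p = 0.961). Psme2b, a near copy of Psme2, and Psmb1, a beta subunit, followed with log2 fold changes of 0.28 ± 0.19 and 0.11 ± 0.08.

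The second question is what Sipa1l2 loss does to nerves that carry the transgene. In C3-PMP22 Sipa1l2-/- against C3-PMP22, 0 of 48 members passed edgeR's test, 0.0% of all genes did, and 0 members had an unadjusted p below 0.05, against 8.07% of all genes. The DESeq2 Wald test called 0 members and 0.0715% of all genes. All 31 constitutive subunits had log2 fold changes below 0, with a median of -0.13, where 61.5% of all genes lay below 0. Without C3-PMP22 7 and 8, 28 of them were above 0, with a median of 0.06, and within the plain-number series 24 were above 0. With counts scaled by library totals alone, 20 were above 0 and 11 below, with a median of 0.02, against 0.05 over all genes in that fit. With the muscle score in the model all 31 were below 0, with a median of -0.11. Within the G series, which holds C3-PMP22 7 and 8, all 31 were below 0 too, with a median of -0.20. Psmd8, a lid subunit of the 19S cap, had 59.9, 84.6 and 102.0 CPM in C3-PMP22 Sipa1l2-/-, against 56.2, 96.3 and 208.9 CPM in C3-PMP22 (log2 fold change -0.45 ± 0.24, edgeR adjusted p = 0.606). Its values in C3-PMP22 7 and 8 were 208.9 and 174.0 CPM. Psmc3, another 19S ATPase, had 115.3, 139.1 and 155.6 CPM in C3-PMP22 Sipa1l2-/-, against 116.5, 144.0 and 232.7 CPM in C3-PMP22 (log2 fold change -0.22 ± 0.12).

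Against Sipa1l2-/- nerves, the double mutant again gave 0 of 48 members called, where 0.721% of all genes were, and 2 members with an unadjusted p below 0.05, against 8.69% of all genes. Of the log2 fold changes 25 were above 0 and 23 below, with a median of 0.01, where 45.9% of all genes lay above 0. Psmf1 and Psmg1 had the smallest p. Psmg1 had 9.2, 10.2 and 12.7 CPM in C3-PMP22 Sipa1l2-/-, against 6.8, 9.1 and 10.6 CPM in Sipa1l2-/- (log2 fold change 0.22 ± 0.09, edgeR adjusted p = 0.426). Psmc5, a 19S ATPase, had a log2 fold change of -0.20 ± 0.12.

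In the pooled contrast of both transgenic genotypes against both others, 0 of 48 members passed, where 3.32% of all genes did, and 1 had an unadjusted p below 0.05, against 17.2% of all genes. Of the members 38 were above 0, where 55.1% of all genes were. Psmc6 had a log2 fold change of 0.22 ± 0.11 (edgeR adjusted p = 0.291) and Psma4, an alpha subunit, of 0.16 ± 0.08. The interaction of transgene and Sipa1l2 genotype called 0 of 48 members and 0.0% of all genes in edgeR, with 0 members at an unadjusted p below 0.05, against 6.41% of all genes. The DESeq2 Wald test called 0 members and 0.0195% of all genes. Of the members 39 lay below 0, where 59.9% of all genes did. The members with the smallest p for the interaction were Psmg3, a core chaperone (log2 -0.29 ± 0.15), Psmc1, a 19S ATPase (-0.24 ± 0.13), and Psmg1 (0.23 ± 0.14). None of the 48 members had values without overlap between the 2 groups in any of the 5 comparisons between single genotypes. The share of all tested genes without overlap was 0.39% in C3-PMP22 against WT, 0.48% in C3-PMP22 Sipa1l2-/- against WT and 0.195% in C3-PMP22 Sipa1l2-/- against Sipa1l2-/-. It was 0.0% in Sipa1l2-/- against WT and in C3-PMP22 Sipa1l2-/- against C3-PMP22. These comparisons share the same WT, C3-PMP22 or Sipa1l2-/- libraries.

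**Figure D2:**
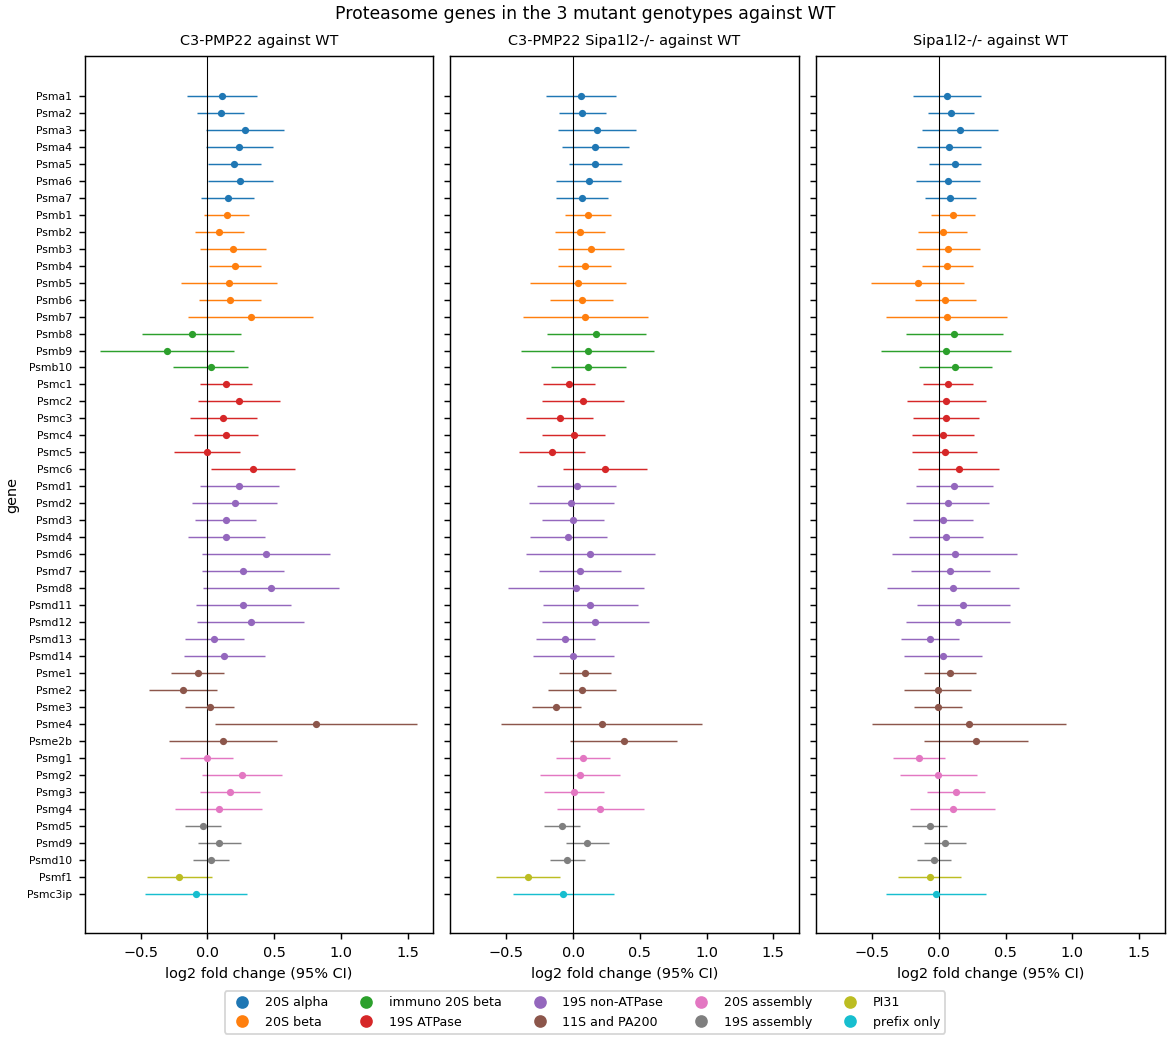
Log2 fold change of each member (points, coloured by role) with its 95% interval (lines) in C3-PMP22, C3-PMP22 Sipa1l2-/- and Sipa1l2-/- nerves against WT, from edgeR's fit on all 32 libraries. Nearly all intervals cross 0; Psme4 lies farthest from 0 in C3-PMP22, at 0.81, and the interval of Psmf1 in C3-PMP22 Sipa1l2-/- lies below 0, from -0.58 to -0.10.

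Psmf1 was the member with the smallest p in 3 of these comparisons. The gene (ENSMUSG00000032869, chr2:151715812-151744186, minus strand, GRCm38) encodes PI31, which binds the core and is known as an inhibitor in vitro and as an adaptor for transport of proteasomes along axons in Drosophila and mouse neurons. It had 25.5, 31.9 and 45.8 CPM in C3-PMP22 Sipa1l2-/-, 31.9, 37.3 and 43.0 CPM in C3-PMP22 and 30.8, 41.3 and 51.8 CPM in Sipa1l2-/-, against 39.1, 41.2 and 52.1 CPM in WT. The log2 fold change in C3-PMP22 Sipa1l2-/- against WT was -0.34 ± 0.12 (95% interval -0.58 to -0.10; adjusted p = 0.158 from edgeR's quasi-likelihood test). Against Sipa1l2-/- it was -0.27 ± 0.11 (adjusted p = 0.413), and for both transgenic genotypes against both others -0.24 ± 0.08 (adjusted p = 0.107).

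Within the double mutant, males and females did not overlap in 16 of 48 members, where 28.3% of all tested genes did not overlap, and Psmf1 was among them. The 3 males, with G numbers, had 41.0, 42.6 and 45.8 CPM, within the WT range. The 5 females, with plain numbers, had 25.5, 25.9, 29.2, 30.6 and 33.2 CPM, all below the lowest WT value of 39.1 CPM. Libraries of other genotypes also lay below that value, in both number series. With plain numbers, Sipa1l2-/- 1, 2 and 5 had 34.5, 30.8 and 34.0 CPM, and C3-PMP22 1 and 3 had 35.04 and 35.1 CPM. With G numbers, C3-PMP22 5 and 7 had 33.7 and 31.9 CPM. Within the plain-number series the log2 fold change against WT was -0.58 (edgeR adjusted p = 0.0266, where 5.42% of genes were called), and within the G series it was 0.04 (adjusted p = 0.881). The gene passed for C3-PMP22 Sipa1l2-/- against WT in the plain-number series and in the fits with an adipocyte score (adjusted p = 0.0154, 4.57% of genes called) or the sample number as a factor (adjusted p = 0.0466, 2.01% called). It did not pass with the muscle score in the model (log2 fold change -0.32, edgeR adjusted p = 0.182) or with total counts (edgeR adjusted p = 0.199). Nor did it pass without C3-PMP22 7 and 8 (edgeR adjusted p = 0.119) or in the DESeq2 Wald test (adjusted p = 0.0846). For both transgenic genotypes against both others it passed in the DESeq2 Wald test (adjusted p = 0.0457, 5.5% of genes called) and in the fit with an adipocyte score (edgeR adjusted p = 0.0104, 5.33% called). With the muscle score in the model it did not pass there (edgeR adjusted p = 0.177). In C3-PMP22 Sipa1l2-/- against WT, 9 of 10 Schwann cell markers (median log2 fold change -0.39) and 7 of 8 adipocyte markers (median -0.58) were below 0, and none passed the test. Their part in the values of Psmf1 was not tested, beyond the fit with the adipocyte score. A difference between the 2 series or sexes in this effect was not tested.

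The catalytic beta subunits carry the choice between the standard proteasome and the immunoproteasome. Over all nerves the standard subunits stood at 80.5 ± 13.3 CPM per kb for Psmb6, 74.1 ± 26.1 for Psmb7 and 45.2 ± 11.7 for Psmb5. Their immune counterparts stood at 7.70 ± 2.84 CPM per kb for Psmb9, 14.4 ± 2.7 for Psmb10 and 19.1 ± 5.1 for Psmb8. The means of Psmb6 and Psmb7 lay within their SDs of each other, and Psmb8 and Psmb10 lay within the SD of Psmb8.

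Psmb8 (chr17:34197721-34201454, plus strand, GRCm38) had 18.3, 22.6 and 46.9 CPM in C3-PMP22, 20.1, 38.0 and 44.97 CPM in C3-PMP22 Sipa1l2-/- and 22.0, 30.8 and 46.9 CPM in Sipa1l2-/-, against 25.5, 28.1 and 45.2 CPM in WT. The 4 genotypes overlapped almost entirely. Its log2 fold change against WT was -0.12 ± 0.18 in C3-PMP22, 0.18 ± 0.18 in C3-PMP22 Sipa1l2-/- and 0.12 ± 0.18 in Sipa1l2-/-. In C3-PMP22 the direction turned with the libraries used: it was 0.32 in the plain-number series, -0.51 in the G series, 0.09 with the adipocyte score and 0.02 without C3-PMP22 7 and 8.

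Psmb9 (chr17:34181987-34187764, minus strand) had 4.9, 6.9 and 12.4 CPM in C3-PMP22, 6.0, 12.3 and 18.5 CPM in C3-PMP22 Sipa1l2-/- and 6.9, 9.7 and 15.1 CPM in Sipa1l2-/-, against 7.9, 9.6 and 19.7 CPM in WT. Against C3-PMP22, the double mutant had a log2 fold change of 0.41 ± 0.24 (95% interval -0.09 to 0.90; edgeR adjusted p = 0.611). Psmb10 (chr8:105935735-105938444, minus strand) had 12.8, 16.9 and 25.2 CPM in C3-PMP22, 12.8, 21.3 and 24.95 CPM in C3-PMP22 Sipa1l2-/- and 14.4, 18.9 and 23.6 CPM in Sipa1l2-/-, against 16.0, 17.2 and 24.5 CPM in WT. Psmb9 overlaps Tap1 on the other strand, and whether reads were counted by strand is not stated.

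Within the double mutant these 3 genes were also among the 16 members without overlap between males and females. Psmb8 had 20.1 to 28.8 CPM in the 3 males and 36.6 to 44.97 CPM in the 5 females. Psmb9 had 6.0 to 7.7 CPM in the males and 11.7 to 18.5 CPM in the females. Psmb10 had 12.8 to 16.4 CPM in the males and 21.1 to 24.95 CPM in the females. In all, 14 of the 48 members had all male values below the female ones, where 11.8% of all tested genes did. Among them were the core subunits Psma1, Psma4 and Psmb2, the cap subunits Psmc2, Psmd3, Psmd4 and Psmd14, the 11S genes Psme1, Psme2 and Psme3, and Psmg1. Psmf1 and Psmg4 had all male values above the female ones, where 16.5% of all tested genes did.

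Among the standard counterparts, Psmb5, the chymotrypsin-like subunit that Psmb8 replaces, had 28.4, 39.8 and 74.7 CPM in C3-PMP22, 33.7, 43.2 and 48.2 CPM in C3-PMP22 Sipa1l2-/- and 25.1, 36.0 and 49.97 CPM in Sipa1l2-/-, against 27.9, 41.1 and 48.04 CPM in WT. Psmb6, the caspase-like subunit, had 53.3, 60.4 and 95.1 CPM in C3-PMP22, 54.5, 63.7 and 79.0 CPM in C3-PMP22 Sipa1l2-/- and 48.2, 61.4 and 74.2 CPM in Sipa1l2-/-, against 50.6, 60.1 and 73.4 CPM in WT. Psmb7, the trypsin-like subunit, had 54.5, 83.4 and 176.7 CPM in C3-PMP22, 61.1, 89.1 and 105.3 CPM in C3-PMP22 Sipa1l2-/- and 49.9, 69.9 and 117.8 CPM in Sipa1l2-/-, against 61.4, 74.2 and 121.7 CPM in WT. In each of these genes the highest C3-PMP22 values were those of libraries 7 and 8.

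As a share of each pair on the per-kb scale, Psmb8 made up 26.4% ± 9.9 of Psmb8 and Psmb5 in C3-PMP22, 31.4% ± 6.1 in C3-PMP22 Sipa1l2-/- and 33.3% ± 7.1 in Sipa1l2-/-, against 29.7% ± 8.1 in WT. Psmb9 made up 6.94% ± 3.05 of its pair with Psmb6 in C3-PMP22, 9.81% ± 3.61 in C3-PMP22 Sipa1l2-/- and 9.12% ± 2.06 in Sipa1l2-/-, against 9.60% ± 4.25 in WT. Psmb10 made up 16.4% ± 7.6 of its pair with Psmb7 in C3-PMP22, 17.1% ± 3.0 in C3-PMP22 Sipa1l2-/- and 18.5% ± 4.8 in Sipa1l2-/-, against 17.6% ± 4.6 in WT. In each pair of genes, the mean of each mutant genotype lay within 1 SD of the WT mean. The size of these shares depends on the transcript lengths used. Per kb of all annotated exons, Psmb8 had 9.21 CPM and Psmb5 45.2, Psmb9 2.84 and Psmb6 34.3, and Psmb10 11.1 and Psmb7 25.1. A change in the number of cells that express the immune subunits and a change in their RNA per cell cannot be told apart in whole nerve. The median sum of 8 macrophage markers was 742 CPM in C3-PMP22 and 1097 CPM in C3-PMP22 Sipa1l2-/-. It was 718 CPM in Sipa1l2-/-, against 805 CPM in WT. In C3-PMP22 Sipa1l2-/- against WT, 1 of them (Aif1) was called higher and 0 lower, where 1.38% of all genes were called. The part of these cells in the immune subunits was not tested.

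**Figure D3:**
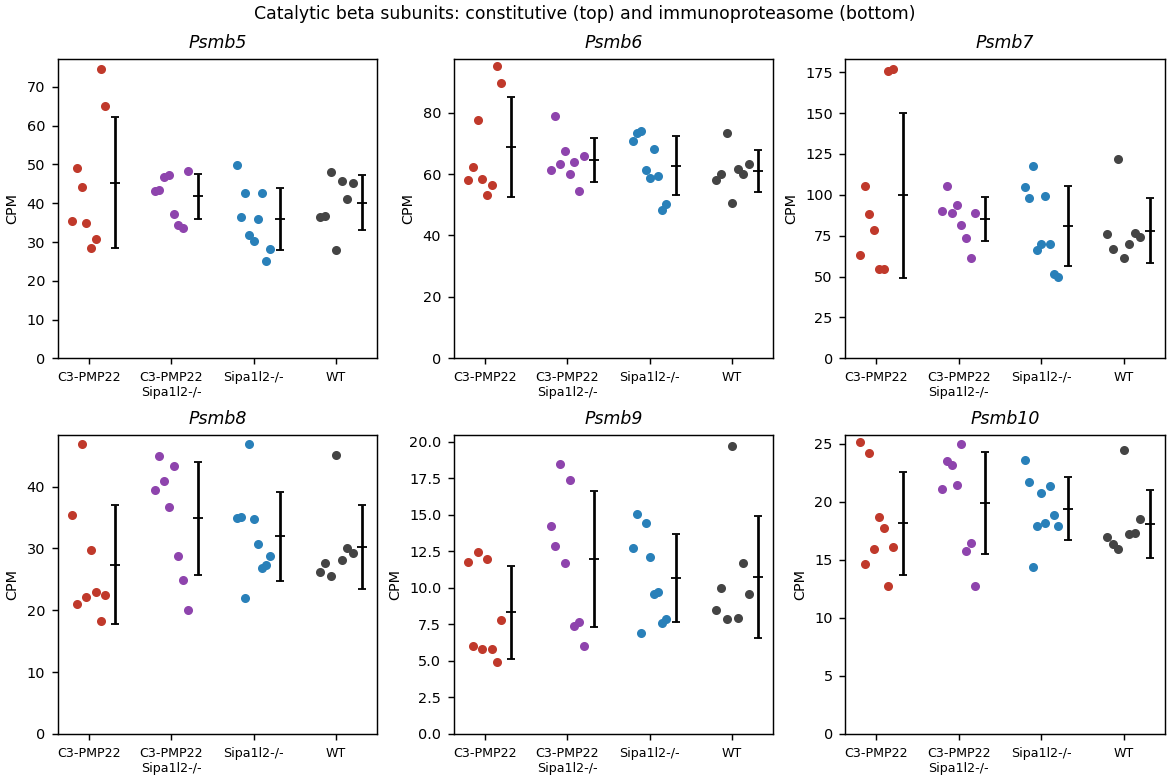
CPM of the standard catalytic subunits Psmb5, Psmb6 and Psmb7 (top) and of their immunoproteasome counterparts (bottom) in each library (points) by genotype, with the mean and SD (bars). Libraries of all genotypes overlap in each panel; the standard subunits have their highest values in 2 C3-PMP22 libraries, at 74.7 CPM for Psmb5 and 176.7 CPM for Psmb7.

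No alternative cap gene passed edgeR's test in a comparison between genotypes. Psme1 and Psme2 encode the interferon-inducible 11S activator (PA28 alpha and beta), which opens the core without ATP. Psme1 (chr14:55578123-55581529) had 44.3, 47.9 and 65.8 CPM in C3-PMP22, 50.6, 62.0 and 68.7 CPM in C3-PMP22 Sipa1l2-/- and 47.0, 58.2 and 67.5 CPM in Sipa1l2-/-, against 46.9, 55.5 and 62.3 CPM in WT. Psme2 (chr14:55587441-55591113) had 34.3, 39.99 and 52.2 CPM in C3-PMP22, 40.7, 51.2 and 59.8 CPM in C3-PMP22 Sipa1l2-/- and 29.9, 49.1 and 62.7 CPM in Sipa1l2-/-, against 38.1, 47.5 and 54.7 CPM in WT. In the double mutant against C3-PMP22 the log2 fold change was 0.24 ± 0.12 for Psme2 (edgeR adjusted p = 0.606), the smallest p in that comparison, and 0.16 ± 0.09 for Psme1. Psme2b is 99.4% identical to Psme2 over 794 bases, so the split of reads between them is uncertain. Its values were 2.4, 3.7 and 5.3 CPM in C3-PMP22, 3.1, 4.5 and 6.3 CPM in C3-PMP22 Sipa1l2-/- and 3.0, 4.1 and 5.8 CPM in Sipa1l2-/-, against 1.7, 3.7 and 4.8 CPM in WT. Psme3, the nuclear 11S cap, had 47.1, 63.5 and 79.6 CPM in C3-PMP22, 50.5, 59.3 and 63.5 CPM in C3-PMP22 Sipa1l2-/- and 50.7, 63.0 and 72.0 CPM in Sipa1l2-/-, against 59.7, 63.3 and 66.7 CPM in WT.

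Psme4 (ENSMUSG00000040850, chr11:30771726-30880361, plus strand) encodes PA200, a nuclear cap linked to degradation of acetylated histones. It had 77.8, 157.1 and 527.6 CPM in C3-PMP22, 87.0, 147.2 and 197.8 CPM in C3-PMP22 Sipa1l2-/- and 64.0, 119.6 and 346.2 CPM in Sipa1l2-/-, against 92.6, 104.1 and 233.2 CPM in WT. The groups overlapped, and C3-PMP22 7 and 8 led with 527.6 and 417.7 CPM. The log2 fold change in C3-PMP22 against WT was 0.81 ± 0.37 (95% interval 0.06 to 1.57; edgeR adjusted p = 0.247). It was 0.09 without C3-PMP22 7 and 8 (adjusted p = 0.967), 0.01 within the plain-number series and 1.15 within the G series, which holds both of these libraries.

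The muscle score gave the pattern that most members shared. With genotype and labelled sex in the model, edgeR's test called 34 of 48 members higher with the score and 0 lower, where 15.7% of all genes were called higher and 7.43% lower (23.1% either way). All 31 constitutive subunits were called higher, with a median slope of 0.048 log2 CPM per unit of score, against -0.005 over all tested genes. The score ran from -7.31 to 4.40, and no member is a muscle marker. These slopes relate measurements of the same libraries and do not say which cells hold the proteasome transcripts.

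The steepest slope was that of Psme4, at 0.18 ± 0.03 log2 CPM per unit (SE; edgeR adjusted p = 8.18e-06). Psmd11, a lid subunit that stabilises the 26S complex, had a slope of 0.08 ± 0.01 (adjusted p = 1.52e-05), and Psmd12, another lid subunit, had 0.09 ± 0.01 (adjusted p = 2.25e-05). These 3 had the smallest p. Psmd8 and Psmd6, also in the 19S cap, had slopes of 0.12 ± 0.02 and 0.11 ± 0.02, and Psmb7 had 0.11 ± 0.02. Psmd11 had 49.2, 66.1 and 116.1 CPM in C3-PMP22, 44.9, 65.4 and 94.2 CPM in C3-PMP22 Sipa1l2-/- and 52.8, 62.8 and 111.4 CPM in Sipa1l2-/-, against 50.9, 59.1 and 84.3 CPM in WT. Psmd12 had 41.9, 58.2 and 109.2 CPM in C3-PMP22, 42.8, 61.1 and 71.4 CPM in C3-PMP22 Sipa1l2-/- and 36.0, 50.3 and 92.1 CPM in Sipa1l2-/-, against 40.4, 52.1 and 71.6 CPM in WT. The highest values of Psmd11 were in C3-PMP22 7 and 8 and Sipa1l2-/- 3, which have the 3 highest muscle scores. Psmd11 shares sequence with A730017L22Rik, whose counts were 14.7% of its own.

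The other members called outside the constitutive subunits were Psme3, at 0.03 ± 0.01 per unit (adjusted p = 0.0261), and Psmg2, at 0.05 ± 0.01 (adjusted p = 0.00938). Among the constitutive subunits the shallowest slope was that of Psma2, at 0.03 ± 0.01 (adjusted p = 0.0104). The 3 immunoproteasome genes had slopes below 0 and none was called: Psmb8 -0.01 ± 0.02, Psmb9 -0.02 ± 0.03 and Psmb10 -0.02 ± 0.02 (adjusted p = 0.31). Their intervals reached from -0.08 to 0.04. The negative slopes with the smallest p were those of Psmb10, Psmg4, a core chaperone (-0.02 ± 0.02), and Psme1 (-0.01 ± 0.01). None of the 19S chaperones was called, nor was Psmf1.

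These slopes depended on scaling. The TMM factors of C3-PMP22 7 and 8, which have the highest muscle scores, were 0.697 and 0.715. With counts scaled by library totals alone the median slope was 0.016 over the 31 constitutive subunits, against -0.036 over all genes, and 29 of 31 slopes were above 0. Of the 31, 14 were called higher and 0 lower, where 48.1% of all genes were called either way. The share of all genes called higher in that fit is not given here. Psme4 kept a slope of 0.14 and Psmb7 of 0.07. The members called lower in that fit were Psmb10, Psme1, Psmf1 and Psmg4. Within the plain-number series 15 of 31 constitutive subunits were called, where 11.6% of all genes were, and within the G series 11, where 9.8% were, with all 31 slopes above 0 in both. Without the 2 libraries farthest from the median score, Sipa1l2-/- 8 and C3-PMP22 Sipa1l2-/- 7, all 31 slopes of constitutive subunits were above 0. Their median was 0.050, against -0.010 over all genes.

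**Figure D4:**
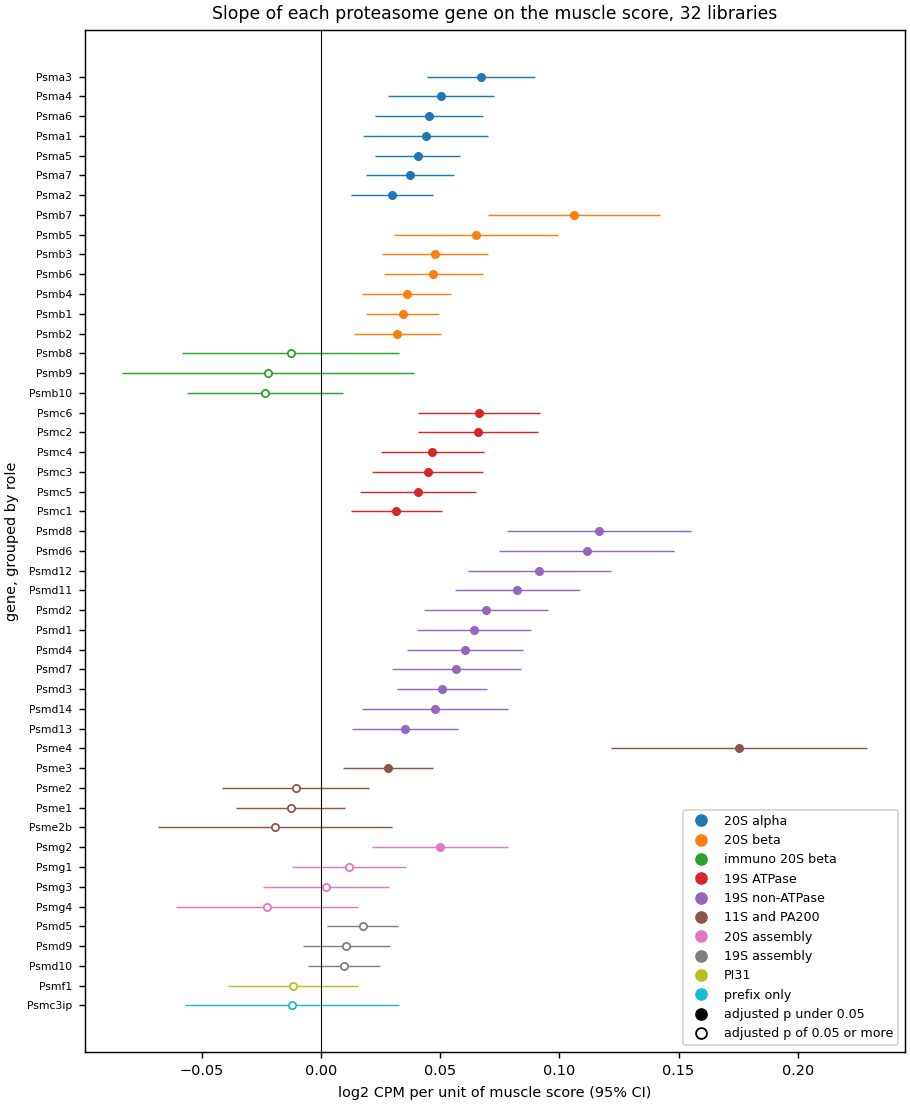
Slope of log2 CPM per unit of muscle score for each member (points, coloured by role, filled where the edgeR adjusted p is below 0.05) with its 95% interval (lines), over 32 libraries with genotype and sex in the model. All 31 constitutive subunits lie above 0, Psme4 is farthest at 0.18, and the 3 immunoproteasome genes lie at or below -0.01.

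**Figure D5:**
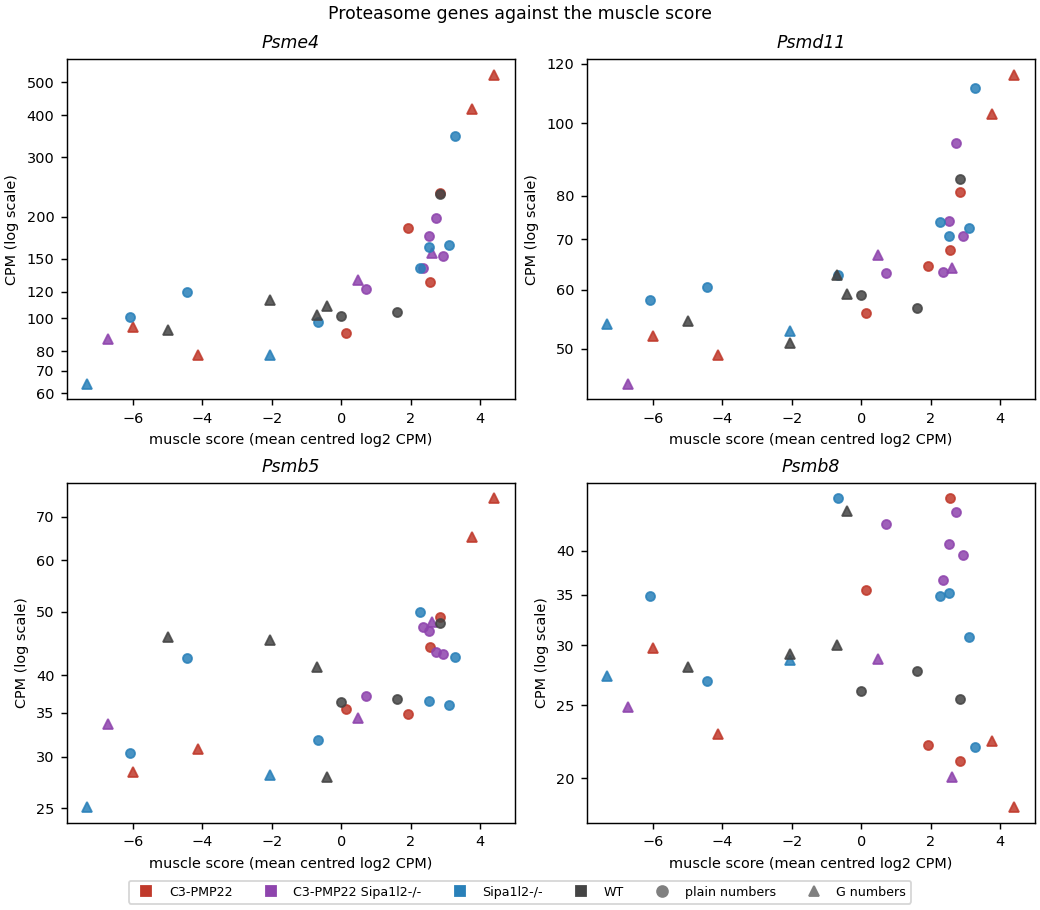
CPM (log axis) of Psme4, Psmd11, Psmb5 and Psmb8 in each library against its muscle score, coloured by genotype, with circles for plain animal numbers and triangles for G numbers. Psme4 runs from 64.0 to 527.6 CPM and is highest in the libraries with the highest scores, while the slope of Psmb8 did not pass the test.

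Between the sexes, 0 of 48 members passed edgeR's test in male against female, where 1.34% of all genes did, and 2 had an unadjusted p below 0.05, against 14.7% of all genes. All 31 constitutive and all 3 immunoproteasome genes had log2 fold changes below 0, with a median over the members of -0.10, against -0.00 over all genes, of which 50.8% lay below 0. With the muscle score in the model, 27 of 31 constitutive subunits were above 0. Without C3-PMP22 7 and 8, labelled female against their Xist and Ddx3y values, 12 were above 0 and 19 below. A fit with these sex labels changed was not run. Psmb9 had 5.8, 7.9 and 14.4 CPM in the 15 males, against 4.9, 11.7 and 19.7 CPM in the 17 females (log2 fold change -0.37 ± 0.17, edgeR adjusted p = 0.324). Psma7 had 61.9, 71.9 and 81.5 CPM in males, against 61.6, 77.9 and 103.4 CPM in females (-0.14 ± 0.07, adjusted p = 0.334). Psmb10 had 12.8, 17.2 and 25.2 CPM in males, against 12.8, 21.1 and 24.95 CPM in females (-0.19 ± 0.10). Among the labelled females, the lowest Psmb9 and Psmb10 values and the highest Psma7 value were those of C3-PMP22 7. The positive changes with the smallest p were 0.13 ± 0.08 for Psmf1, 0.04 ± 0.04 for Psmd10 and 0.02 ± 0.05 for Psmd5.

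Other genes of the pathway were read from 4 lists: factors that regulate or associate with the proteasome, ubiquitin genes, MHC class I presentation and ER-associated degradation. In the genotype comparisons 2 of these genes passed edgeR's test, both of ER-associated degradation and both lower in C3-PMP22 Sipa1l2-/- against WT, where 1.38% of all genes were called. Sel1l, an adaptor of the ubiquitin ligase of that pathway, had 135.7, 141.1 and 172.8 CPM in the double mutant, against 145.4, 169.4 and 198.3 CPM in WT (log2 fold change -0.25 ± 0.07, edgeR adjusted p = 0.0477). Syvn1, the ligase itself, had 24.9, 34.0 and 35.1 CPM, against 31.3, 41.3 and 45.8 CPM in WT (-0.31 ± 0.08, adjusted p = 0.0454). Both lie close to the threshold, and neither passed when the fit held the compared groups alone or no sex term. Of 17 tested genes of that list the other 15 did not pass. The Schwann cell and adipocyte marker values of the double mutant, given with Psmf1, stand beside these too, and their part was not tested.

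Nfe2l1, which raises proteasome genes when degradation falls short, had log2 fold changes against WT of 0.02 in C3-PMP22, -0.16 in C3-PMP22 Sipa1l2-/- and -0.01 in Sipa1l2-/-. Pomp, the maturation factor of the core, had 0.03 in C3-PMP22, 0.03 in C3-PMP22 Sipa1l2-/- and 0.01 in Sipa1l2-/-. Adrm1, a ubiquitin receptor of the cap, had 0.15 in C3-PMP22, -0.05 in C3-PMP22 Sipa1l2-/- and 0.02 in Sipa1l2-/-. Tap1, a peptide transporter for MHC class I, had -0.35 in C3-PMP22, -0.08 in C3-PMP22 Sipa1l2-/- and -0.16 in Sipa1l2-/-. B2m, the light chain of MHC class I, had 302.3, 526.7 and 785.0 CPM in C3-PMP22, against 619.2, 783.7 and 1076 CPM in WT (log2 fold change -0.61 ± 0.20, edgeR adjusted p = 0.133). None of these 5 passed in any genotype comparison.

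With the muscle score, 14 of 19 tested regulators were called higher and 0 lower, where 15.7% of all genes were called higher and 7.43% lower. Zfand5, a proteasome activator known from muscle atrophy, had the steepest slope among them, at 0.16 ± 0.02 (edgeR adjusted p = 2.60e-07), and Ecpas, a proteasome adaptor, had 0.11 ± 0.02. Adrm1 had 0.05 ± 0.01, Nfe2l1 0.03 ± 0.01 (adjusted p = 0.0493) and Pomp 0.03 ± 0.01 (adjusted p = 0.0429). Among the others called were Vcp, Rad23b, Usp14, Ddi2, Ngly1, Sem1, Txnl1 and Ubqln4. Of 14 ubiquitin genes 5 were called higher: Ube2d1, a conjugating enzyme, at 0.24 ± 0.03, and Ube2d3, Sqstm1, Ube3a and Ube3c. Of 12 MHC class I genes 0 were called higher and 1 lower, Tap2 at -0.04 ± 0.01 (adjusted p = 0.0397). Of 17 genes of ER-associated degradation, Herpud1, Nploc4 and Rnf139 were called higher and Edem2, Os9 and Syvn1 lower. Of 4 ligases induced in muscle atrophy, Fbxo40, Trim63 and Fbxo32 were called higher, at 1.05, 1.04 and 0.31 per unit. The muscle markers that make up the score had a median slope of 1.12, so such slopes cannot separate atrophy from the amount of muscle RNA. An atrophy response was not tested.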

How the data were processed

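Polyadenylated RNA of sciatic nerve was sequenced from 32 mice. The authors deposited expected counts per gene, estimated with RSEM on GRCm38 (mm10) after Trim Galore and FastQC, per the submitters' processing notes; no versions or strand setting are stated there. The expected counts were rounded to whole numbers. Genes passing edgeR's filterByExpr by genotype (minimum count 10) were scaled by TMM and fitted on all 32 libraries with genotype and labelled sex in edgeR 4.0.16's quasi-likelihood test (R 4.3.3). P-values were adjusted by Benjamini-Hochberg over 15403 genes, with a threshold of 0.05. The steps were tested on simulated data. P-values measure the spread between samples as labelled.

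The members and gene lists were chosen with earlier results of these data known. The muscle score is the mean centred log2 CPM over 16 markers, and slopes on it kept genotype and sex. CPM per kb used the principal transcript of GENCODE M21. Full values are given for catalytic, immunoproteasome and alternative cap genes, for the highest and lowest of each class, and for called genes. Where nothing was called, the 3 members with the smallest p are named, and 3 per direction for sex and the muscle score. From the pathway lists, called genes and Nfe2l1, Pomp, Adrm1, Tap1 and B2m are named. Alternatives were other scalings, the DESeq2 1.42.0 Wald test, other filters, no sex term, only the compared groups, a replicate block, muscle or adipocyte scores, the number series, and libraries left out. Near copies (Psme2 and Psme2b, Psma3 and Gm609, Psmd11 and A730017L22Rik) and overlapping genes on the other strand (Psmb9 and Tap1, Psmb8 and Gm20496, Psmb7 and Nek6) are uncertain in gene-level counts.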

Additional observations from a re-analysis of the deposited data

Results flagged for a closer look

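In 11 of 116 sets of values (29 genes in 4 genotypes), 1 library stood apart from the others of its genotype by Dixon's criterion, which chance meets in about 1 in 20 sets. The cause was not tested in any of them.

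In WT 3, which has the highest muscle score of the WT nerves at 2.84, Psmb7 had 121.7 CPM, against 61.4 to 76.4 CPM in the other WT nerves. There Psmd8 had 127.9 CPM, against 63.5 to 85.1 CPM, and Psmd11 84.3 CPM, against 50.9 to 62.8 CPM. Psme4 had 233.2 CPM, against 92.6 to 113.3 CPM, and Psme2b was lowest with 1.67 CPM, against 3.11 to 4.75 CPM.

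In Sipa1l2-/- 3, which has the highest muscle score of its genotype at 3.28, Psmd11 had 111.4 CPM, against 52.8 to 73.9 CPM in the other Sipa1l2-/- nerves, and Psmg3 was lowest with 4.54 CPM, against 5.58 to 6.75 CPM.

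In WT 4 all 3 immunoproteasome genes stood apart. Psmb8 had 45.2 CPM, against 25.5 to 29.995 CPM in the other WT nerves, Psmb9 had 19.7 CPM, against 7.89 to 11.7 CPM, and Psmb10 had 24.5 CPM, against 16.0 to 18.5 CPM. This nerve also had the highest WT level of Tap1, at 51.0 CPM, and of B2m, at 1076 CPM. In C3-PMP22 Sipa1l2-/- 2, Psmc6 had 103.7 CPM, against 75.6 to 84.8 CPM in the others.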

How the results depend on the processing

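Members called for C3-PMP22 Sipa1l2-/- against WT became 1 (Psmf1, lower) with the replicate block, the adipocyte score or the plain series. For both transgenic genotypes against both others they became 1 with total counts (Psmc5, lower), DESeq2 or the adipocyte score (Psmf1, lower). Members called on the muscle score became 19 with total counts (15 higher, 4 lower), where 48.1% of all genes were called. They became 17 in the plain series (16 higher), where 11.6% of all genes were called, and 12 in the G series, where 9.8% were. With score and counts both by totals they became 18, and the share of all genes in that fit is not given here. With total counts the median member change became -0.056 for C3-PMP22 against WT, where that of all genes was -0.12. For the interaction it became 0.053, where that of all genes was 0.11. In the G series the median member change became -0.25 for Sipa1l2-/- against WT, 0.28 for the double mutant against Sipa1l2-/- and 0.10 for the interaction. The only Sipa1l2-/- nerves of that series are libraries 8 and 9. Pathway genes called in the double mutant against WT fell to 0 with total counts, no filter, no sex term, only the compared groups or the series factor. They were 1 with the block, either score or either series. For male against female they became 1 with total counts, DESeq2, a mean CPM of at least 1 or the adipocyte score, and on the muscle score 13 in the G series. The causes were not tested.

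Among the members named for their p or called, values that changed sign were 0.025 for Psmg1, in Sipa1l2-/- against WT in the plain series, and -0.17 for Psme2b and -0.046 for Psmb1 in the G series. In the double mutant against WT they were 0.045 for Psmf1 and -0.23 for Psme2b (G series), and against C3-PMP22 0.034 for Psmd8 (plain series). They were 0.039 for Psmg3 in the interaction (plain series). For male against female they were -0.042 for Psmf1, -0.0062 for Psmd5 and 0.0063 for Psmb10 (G series), and -0.0059 for Psmd5 with the block. The Psme3 slope was -0.0036 with total counts and -0.0033 with both by totals.

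With 1 library left out, members called on the muscle score ranged from 28 (without C3-PMP22 6) to 35, and for both transgenic genotypes against both others from 0 to 1 (Psmf1, without C3-PMP22 Sipa1l2-/- 7). The shares of all genes called in these fits are not given here. Without C3-PMP22 6 the median slope of the constitutive subunits was 0.044, against -0.005 over all genes. Pathway counts ranged from 0 to 1 (C3-PMP22 against WT), 0 to 2 (double mutant against WT; male against female) and 20 to 26 (muscle score). The median change for C3-PMP22 against WT ranged from 0.06 (without C3-PMP22 7) to 0.20 (without WT 3).

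Over 45 pairs of samples with the same replicate number the median correlation of deviations was 0.09 (range -0.56 to 0.74). Over 338 pairs with other numbers it was -0.002 (range -0.74 to 0.71). Of 31 libraries, 7 correlated best with their own number, and pairing by number was not tested. With the replicate block the median slope of the constitutive subunits on the muscle score was 0.060, against -0.005 over all genes. Of 1673 single-gene values under the other settings, 1588 kept direction and side of the threshold or moved by less than the spread, and 169 in all had the opposite sign, 64 of them within 1 number series. In C3-PMP22 against WT these included Psmb8 (0.32), Psmb9 (0.15) and Psme2 (0.15) in the plain series, and Psmb5 (-0.14) and Psmb7 (-0.08) without C3-PMP22 7 and 8. The number of samples limits precision: the median 95% interval of a member reached 0.25 log2 to each side in C3-PMP22 against WT.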
